A study of Mus musculus with 7 samples.

Results

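A set of 10 genes that mark stress of the heart wall was followed in mouse myocardium 4 days after infarction. They were the natriuretic peptides Nppa, Nppb and Nppc, the receptors Npr1 and Npr2, the myosin heavy chains Myh6 and Myh7, the sarcomeric actins Acta1 and Actc1, and Ankrd1. They were chosen by name as 10 of the 56980 genes in the table, all 10 had a row, and 9 reached the level set for testing (1 FPKM or more in 3 or more hearts), with Nppc the exception. FPKM counts sequenced fragments corrected for gene length and library size, so that levels can be compared between genes. The hearts came from wild-type male C57BL/6J mice bought at 8 weeks of age and operated on after 1 week of acclimation. In the MI group (3 hearts) the left coronary artery was tied, and in the sham group (4 hearts) the same operation was done without the ligature. Each heart gave 1 library of total RNA from myocardial tissue, of which the labels and methods name no part, while the study's results call that of the MI mice ischemic. P-values measure the spread between these 7 hearts. In bulk tissue of this kind, fewer cells of a type and less RNA per cell cannot be told apart.

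Atrial natriuretic peptide (from Nppa) and brain natriuretic peptide (from Nppb) are hormones that heart muscle cells release when the wall is stretched. They act on the kidney and vessels through Npr1, a receptor that makes cyclic GMP, while C-type natriuretic peptide (from Nppc) acts through Npr2. Ventricular cells express Nppa before birth, and re-express it under load together with the slow myosin Myh7, skeletal actin Acta1 and the titin-associated ankyrin repeat protein Ankrd1. The fast myosin Myh6 and cardiac actin Actc1 are the main adult forms in the mouse ventricle. This set of changes is called the fetal gene program.

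Because the program is known as a transcriptional one, the promoters of 6 of the genes are shown first, as RefSeq places them on GRCm38.p6. Each sequence is the 250 bases before the start that RefSeq gives, read 5′ to 3′ on the strand of the gene. Gene spans given below follow another annotation, GENCODE M21. It places the starts of Nppb, Ankrd1 and Myh6 further upstream and that of Acta1 further downstream. Capitals mark letters that matched a searched motif. Searched on both strands were the GATA motif (GATAA or GATAG after an A or a T), the MCAT motif bound by TEAD factors (CATTCC or CATTCT), the Nkx2-5 motif TNAAGTG, and the CArG and MEF2 motifs. The TATA motif (TATAAA) was searched on the strand of the gene in the last 50 bases only. The windows of Nppa (chr4:148000472-148000721, plus strand) and Nppb (chr4:147985650-147985899, plus strand) belong to the peptides with the largest differences below. Those of Ankrd1 (chr19:36119845-36120094), Acta1 (chr8:123894776-123895025), Myh7 (chr14:54994627-54994876) and Myh6 (chr14:54966608-54966857), all on the minus strand, belong to the stress protein, the skeletal actin and the myosins.
Nppa: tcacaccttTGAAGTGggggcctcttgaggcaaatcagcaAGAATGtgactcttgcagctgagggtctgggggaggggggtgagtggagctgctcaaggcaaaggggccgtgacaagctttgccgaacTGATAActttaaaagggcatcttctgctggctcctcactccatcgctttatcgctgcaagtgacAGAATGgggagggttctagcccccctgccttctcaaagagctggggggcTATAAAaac
Nppb: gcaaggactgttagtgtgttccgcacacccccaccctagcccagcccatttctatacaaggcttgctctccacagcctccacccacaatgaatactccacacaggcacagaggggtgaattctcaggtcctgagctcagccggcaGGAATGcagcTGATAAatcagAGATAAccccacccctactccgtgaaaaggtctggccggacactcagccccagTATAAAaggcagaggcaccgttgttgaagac
Ankrd1: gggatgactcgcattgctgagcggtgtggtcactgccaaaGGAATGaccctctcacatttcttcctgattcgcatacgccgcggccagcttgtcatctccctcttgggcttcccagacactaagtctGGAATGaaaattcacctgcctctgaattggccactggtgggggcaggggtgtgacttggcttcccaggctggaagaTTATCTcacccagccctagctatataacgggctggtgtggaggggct
Acta1: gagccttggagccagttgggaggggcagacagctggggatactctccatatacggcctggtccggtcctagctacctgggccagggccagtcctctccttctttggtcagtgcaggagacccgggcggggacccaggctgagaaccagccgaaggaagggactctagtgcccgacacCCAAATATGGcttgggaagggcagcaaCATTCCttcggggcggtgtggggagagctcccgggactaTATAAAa
Myh7: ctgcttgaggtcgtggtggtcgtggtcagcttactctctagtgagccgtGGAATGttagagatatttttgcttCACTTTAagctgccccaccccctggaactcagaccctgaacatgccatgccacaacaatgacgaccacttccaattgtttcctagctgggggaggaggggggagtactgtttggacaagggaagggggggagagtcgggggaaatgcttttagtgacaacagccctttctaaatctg
Myh6: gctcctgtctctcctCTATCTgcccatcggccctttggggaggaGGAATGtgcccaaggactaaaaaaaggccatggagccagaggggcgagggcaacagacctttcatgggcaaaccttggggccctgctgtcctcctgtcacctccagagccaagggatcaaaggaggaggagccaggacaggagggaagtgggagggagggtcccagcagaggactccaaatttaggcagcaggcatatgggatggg

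Nppb held 2 GATA motifs and Nppa, Ankrd1 and Myh6 held 1 each, whereas 26.5% of the 32851 promoter windows in the table held at least 1. An MCAT motif was present in all 6 printed windows, with 2 in Nppa and 2 in Ankrd1, against 24.6% of all windows. A TATA motif was found in Nppa, Nppb and Acta1, against 2.63% of all windows. Acta1 held a CArG motif (1.47% of all windows), and Nppa and Myh7 held an Nkx2-5 motif (10.1%). No window printed held the MEF2 motif (1.69%). Of the 4 genes not printed, Actc1 held an MCAT and a CArG motif, Nppc held a TATA motif, and Npr1 and Npr2 held none of the 6. RefSeq lists a further start for Myh7 nearer the gene body, and its window held none of them. Matches did not overlap each other. A match describes letters, and binding was not measured.

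The libraries held 19977713 to 23610871 fragments. MI replicate 2 stood apart from MI replicates 1 and 3 and, in the 10 genes, lay near the sham hearts. It fell inside the range of the 4 sham hearts for 9 of the 10, and for 49.4% of all 11431 genes tested. Npr1 was the exception, at 5.09 FPKM against a sham range of 5.21 to 5.65. Between libraries, Pearson's r of MI replicate 2 was 0.984 to 0.987 with the sham hearts and 0.897 and 0.920 with MI replicates 1 and 3. Other genes set it apart from sham, since 6 of 7 fibroblast markers were above every sham heart in all 3 MI hearts. This held for 2 of 7 macrophage markers. Among the fibroblast markers, Postn (periostin) was at 10.8 FPKM in MI replicate 2, against 3.12 to 4.06 in sham and 206 in MI replicate 1. Whether the infarct of this heart differed from the others was not tested, and each value over all hearts rests on its label. Fragments from mitochondrial genes made up 26.5 to 27.4% of the sham libraries, 28.2% of MI replicate 2, and 13.6% and 14.9% of MI replicates 1 and 3. Leaving these genes out of the scaling kept the count of members called over all hearts at 0. Because MI replicate 2 stood apart, differences are given over all hearts and again without it. Leaving it out followed from these same values and kept only MI replicates 1 and 3. The p-values and calls without it are therefore a description and not a test. No gene of the 10 was separated from sham in all 3 MI hearts, whereas 16.1% of the genes tested lay above and 9.00% below every sham heart.

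Nppa, Nppb, Nppc, Npr1, Npr2, Myh7, Acta1 and Ankrd1 lay above every sham heart in MI replicates 1 and 3, and Myh6 and Actc1 lay below. Of all genes tested, 61.9% lay above and 16.9% below in the same way, so such a separation was common. Over all 7 hearts, no member passed an adjusted p of 0.05 in limma, where 0.0175% of the genes tested passed as higher and 0.00875% as lower. At an unadjusted p of 0.05, 4 of the 9 genes tested were higher (Nppa, Nppb, Myh7 and Ankrd1) and 0 were lower, against 29.5% and 9.85% of all genes. Without MI replicate 2, 6 genes were called higher and 2 lower at an adjusted p of 0.05, with Acta1 not called. The share of all genes called was then 57.0% higher and 14.7% lower, so a call there was common. The median gene was 0.21 higher in MI on the log2 scale over all hearts and 0.33 higher without MI replicate 2.

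**Figure D1:**
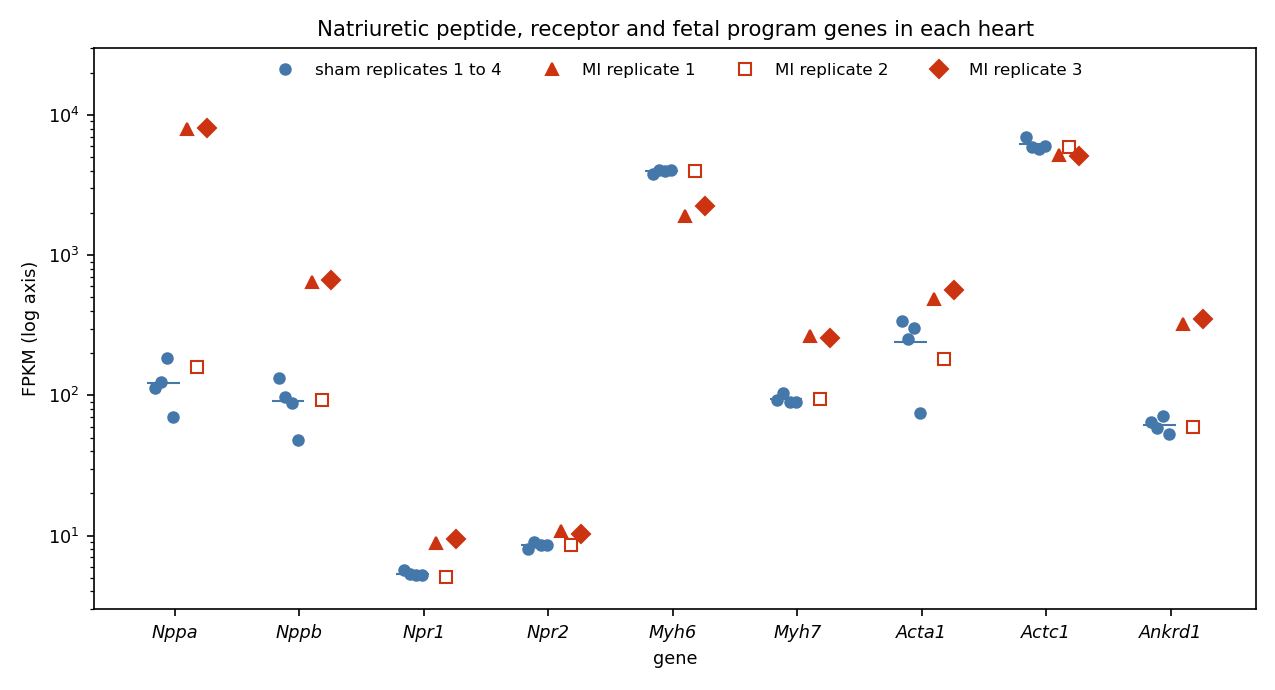
FPKM on a log axis for the 9 genes tested, with 1 point a heart: filled circles, 4 sham hearts (line, their mean); triangles, open squares and diamonds, MI replicates 1, 2 and 3. MI replicates 1 and 3 sit far above sham for Nppa, Nppb, Myh7 and Ankrd1 and below it for Myh6, while MI replicate 2 lies among or beside the sham hearts for every gene. Nppc, at 0 in 4 hearts, is not drawn.

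Nppa (ENSMUSG00000041616) lies on chromosome 4, plus strand, from 148000722 to 148002079. Its FPKM was 113, 125, 185 and 69.7 in sham replicates 1 to 4 and 7940.5, 160.1 and 8125 in MI replicates 1 to 3. The 2 high hearts stood at 64.4 and 65.9 times the sham mean of 123 ± 47.5 (SD, n = 4), and MI replicate 2, at 160.1, was within the sham range. Taking the GENCODE M21 exon length of 865 bases, Nppa had 149603 and 165949 fragments there and alone took 0.687% and 0.703% of these 2 libraries, against 0.00603 to 0.0160% of the sham libraries. It ranked 7 among all genes by FPKM in both, and between 159 and 421 in sham. The difference between MI and sham was 4.22 on the log2 scale of FPKM + 1 (standard error 1.33, adjusted p = 0.108), the 5th largest increase of 11431 genes. It was 6.10 without MI replicate 2 (standard error 0.33, adjusted p = 1.20e-05).

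Nppb (ENSMUSG00000029019) lies 13516 bases upstream of Nppa on the same strand, from 147985788 to 147987205. Sham replicates 1 to 4 had 133, 97.2, 88.1 and 47.9 FPKM, and MI replicates 1 to 3 had 643, 92.6 and 669.8. Again 2 of the 3 MI hearts were clear of sham, at 7.02 and 7.31 times the sham mean of 91.6 ± 35.1 (SD, n = 4), and MI replicate 2 was at 1.01 times that mean. The log2 difference was 1.98 (standard error 0.72, adjusted p = 0.110) over all hearts and 2.92 (standard error 0.35, adjusted p = 0.000323) without MI replicate 2.

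The level of Nppa relative to Nppb separated the same hearts. Nppa was expressed at 0.851, 1.29, 2.10 and 1.45 times the level of Nppb in sham replicates 1 to 4, and at 12.3, 1.73 and 12.1 times in MI replicates 1 to 3. The ratio thus lay within the sham range in MI replicate 2 and far above it in the other 2 MI hearts. On the log2 scale it was 2.24 higher in MI, with an exact two-sided permutation p of 0.114 over the 35 ways to split 7 hearts (0.286 adjusted over 4 ratios). The smallest p this design can give is 0.0571. The difference was 3.18 without MI replicate 2.

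Nppc (ENSMUSG00000026241, chromosome 1 from 86666291 to 86670571, minus strand) was at the limit of detection. Taking an exon length of 1042 bases, it had 0, 0, 2 and 0 fragments in sham replicates 1 to 4 and 24, 0 and 6 in MI replicates 1 to 3, which gave 1.06 FPKM in MI replicate 1 and 0.244 in MI replicate 3. It was not tested. The 2 hearts with the most fragments were again MI replicates 1 and 3.

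Atrial tissue is rich in Nppa, so genes that mark atrial muscle were read in the same hearts. Bmp10 was at 0 in every heart, Sln did not exceed 0.244 FPKM, and Myl7, the atrial light chain, was between 0.150 and 0.764 with no separation of the groups. Myl4 was 0.833, 0.333 and 0.967 in MI replicates 1 to 3 and 0.189 to 0.282 in sham, so every MI heart lay above sham. Summed over the 7 markers, FPKM was 3.81 to 5.29 in sham and 41.9, 5.02 and 43.0 in MI replicates 1 to 3, of which Dkk3 made up 36.4, 2.00 and 37.3. Of the 3 markers tested, 0 passed an adjusted p of 0.05. Without MI replicate 2, 2 were higher and 1 lower, against 57.0% and 14.7% of all genes. The skeletal muscle markers Myh1, Myh2 and Myh4 stayed at or below 0.0175 FPKM, and the 7 summed to 0.690 to 1.14 in sham and 2.83, 0.799 and 3.61 in MI. Tnnt3, fast skeletal troponin T, made up 0.138 to 0.208 of this in sham and 1.88, 0.221 and 2.54 in MI. The part of atrial or skeletal muscle in the levels of the members was not tested.

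The receptors differed far less than the peptides. Npr1 (ENSMUSG00000027931, chromosome 3 from 90450591 to 90465866, minus strand) had 5.65, 5.36, 5.21 and 5.23 FPKM in sham replicates 1 to 4 and 8.83, 5.09 and 9.41 in MI replicates 1 to 3. MI replicates 1 and 3 were 1.65 and 1.76 times the sham mean and MI replicate 2 was the lowest of all 7 hearts. The log2 difference was 0.43 (standard error 0.19, adjusted p = 0.131), and 0.67 (standard error 0.06, adjusted p = 8.18e-05) without MI replicate 2. Over all hearts it was 0.15 after quantile normalization, 0.18 after scaling by the median log-ratio and 0.65 after rescaling to TPM, and it was 0.28 without MI replicate 3. Npr2 (ENSMUSG00000028469, chromosome 4 from 43631935 to 43651244, plus strand) had 8.05, 9.03, 8.61 and 8.51 FPKM in sham and 10.7, 8.59 and 10.3 in MI. The 2 higher MI hearts were 1.26 and 1.21 times the sham mean. Its log2 difference of 0.19 (standard error 0.10, adjusted p = 0.194) was close to that of the median gene, and it was -0.06 after scaling by the median log-ratio, -0.07 after quantile normalization, 0.07 with mitochondrial genes left out and 0.39 after rescaling to TPM. Without MI replicate 2 it was 0.27 (standard error 0.06, adjusted p = 0.00597), below the median gene of that comparison by 0.05.

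Npr2 exceeded Npr1 in every heart, but by less in MI replicates 1 and 3. The Npr2 to Npr1 ratio was 1.42, 1.69, 1.65 and 1.63 in sham and 1.22, 1.69 and 1.10 in MI replicates 1 to 3, so MI replicates 1 and 3 were the lowest of the 7. The log2 ratio was -0.28 in MI relative to sham (exact permutation p = 0.286) and -0.46 without MI replicate 2, and -0.15 without MI replicate 3.

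**Figure D2:**
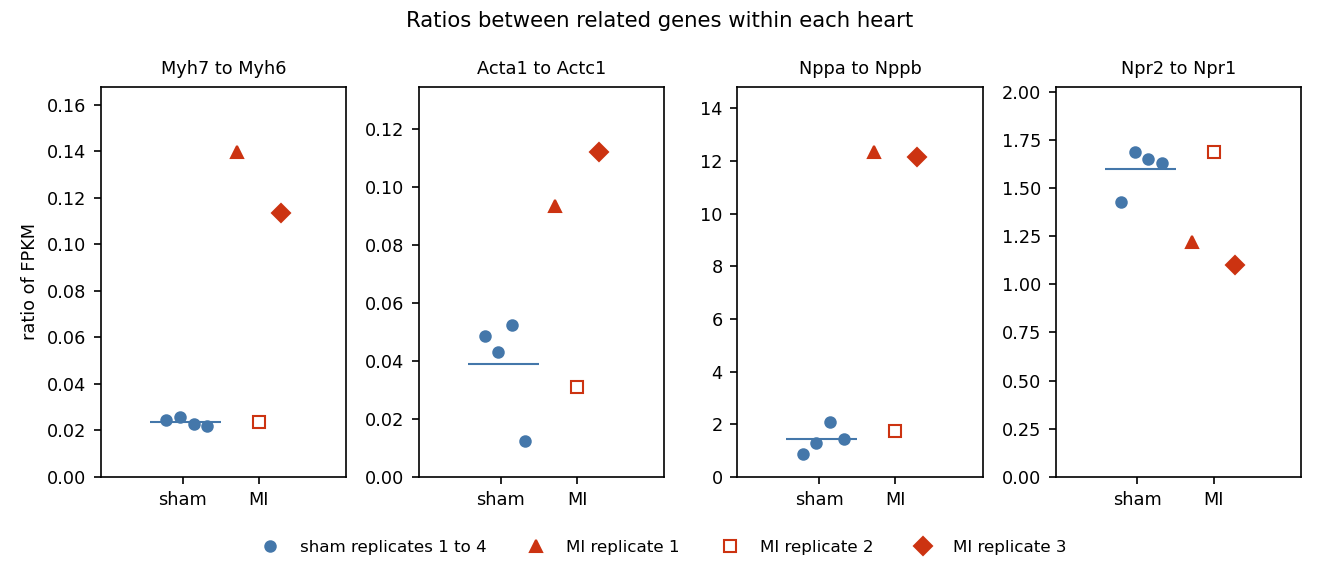
Ratios of FPKM between related genes, 1 point a heart on axes that start at 0: filled circles, sham (line, mean of 4); triangle, open square and diamond, MI replicates 1, 2 and 3. In MI replicates 1 and 3 the Nppa to Nppb, Myh7 to Myh6 and Acta1 to Actc1 ratios lie above every sham heart and the Npr2 to Npr1 ratio below every one.

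Of 15 genes that make, clear or relay the natriuretic signal, 9 were tested and 0 passed an adjusted p of 0.05 over all hearts. Of the 9, 5 were higher and 3 lower when MI replicate 2 was left out, against 57.0% and 14.7% of all genes. The list's median log2 difference was 0.20 over all hearts, against 0.21 for all genes, and 0.27 without MI replicate 2, against 0.33. Among the processing enzymes, Corin, which cleaves the atrial peptide precursor at the cell surface, had 23.1 to 30.7 FPKM in sham and 18.7, 31.1 and 22.1 in MI replicates 1 to 3. Its log2 difference was -0.17 (standard error 0.19, adjusted p = 0.480) and, without MI replicate 2, -0.37 (standard error 0.13, adjusted p = 0.0401). Furin and Pcsk6, proprotein convertases, were above every sham heart in all 3 MI hearts, as were 16.1% of all genes tested. Their differences were near those of the median gene. Furin was 7.55 to 7.81 FPKM in sham and 9.62, 8.46 and 10.2 in MI, a log2 difference of 0.26 (standard error 0.09, adjusted p = 0.109) and of 0.33 without MI replicate 2 (standard error 0.05, adjusted p = 0.00139). Pcsk6 was 9.94 to 10.4 in sham and 11.4, 10.7 and 13.7 in MI, a difference of 0.20 (standard error 0.10, adjusted p = 0.168) and of 0.27 without MI replicate 2 (standard error 0.08, adjusted p = 0.0176).

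The genes that clear the peptides were expressed at low levels, Ide apart. The clearance receptor Npr3 had 0.687 to 1.14 FPKM in sham and 1.29, 1.02 and 2.16 in MI. Its log2 difference was 0.33 (standard error 0.17, adjusted p = 0.169), and 0.47 (standard error 0.16, adjusted p = 0.0296) without MI replicate 2. The peptidases Mme (neprilysin), at 0.604 to 0.889 in sham and 0.422, 0.636 and 0.412 in MI, and Dpp4, at 0.367 to 0.838 and then 1.43, 0.862 and 1.64, were below the level for testing. Ide, an insulin-degrading peptidase, had 10.9 to 16.9 FPKM in sham and 9.89, 14.7 and 9.62 in MI. The log2 difference of Ide was -0.38 (standard error 0.20, adjusted p = 0.177), and -0.57 (standard error 0.17, adjusted p = 0.0203) without MI replicate 2. Ostn, whose product musclin occupies Npr3, was at 0.0323 FPKM or less.

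Downstream of cyclic GMP, the kinase gene Prkg1 had 1.09 to 1.27 FPKM in sham and 1.93, 1.14 and 1.78 in MI, and Vasp, which encodes a substrate of that kinase, had 9.07 to 12.3 in sham and 25.4, 7.76 and 22.1 in MI. The log2 difference of Prkg1 was 0.28 (adjusted p = 0.134) over all hearts and 0.42 (adjusted p = 0.00168) without MI replicate 2. That of Vasp was 0.64 (adjusted p = 0.204) and then 1.14 (adjusted p = 0.000173). The phosphodiesterase Pde3a was 6.38 to 7.76 FPKM in sham and 4.90, 7.06 and 4.39 in MI, a difference of -0.32 over all hearts (adjusted p = 0.148) and of -0.49 without MI replicate 2 (adjusted p = 0.00166). Pde2a did not pass either test, at -0.09 over all hearts (adjusted p = 0.505) and -0.08 without MI replicate 2 (adjusted p = 0.479). Pde5a, Pde9a and Prkg2 were not tested. Pde5a stood at 0.335 to 0.418 FPKM in sham and 1.15, 0.387 and 0.954 in MI. In Pde9a the values were 0.212 to 0.354 in sham and 0.653, 0.283 and 0.521 in MI, and Prkg2 did not exceed 0.244.

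Among the contractile genes, Myh6 (ENSMUSG00000040752, chromosome 14 from 54941921 to 54966927, minus strand) had 3796, 4086, 3999.9 and 4083 FPKM in sham replicates 1 to 4 and 1908, 4001 and 2252 in MI replicates 1 to 3. MI replicates 1 and 3 were at 0.478 and 0.564 times the sham mean, and MI replicate 2 was at 1.00 times that mean. The log2 difference was -0.63 (standard error 0.27, adjusted p = 0.129), and -0.94 (standard error 0.08, adjusted p = 6.15e-05) without MI replicate 2. It was -0.41 (adjusted p = 0.370) without MI replicate 1, and after quantile normalization it was -0.10 over all hearts. Myh7 (ENSMUSG00000053093), 3756 bases away on the same strand from 54970684 to 54994626, had 92.3, 104, 90.2 and 89.4 FPKM in sham and 267, 94.8 and 255 in MI. The 2 higher MI hearts were 2.83 and 2.71 times the sham mean of 94.1 ± 7.01 (SD, n = 4). Its log2 difference was 0.98 (standard error 0.35, adjusted p = 0.109) over all hearts and 1.46 (standard error 0.08, adjusted p = 1.08e-05) without MI replicate 2.

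Myh7 remained the minor myosin in every heart. It made up 2.37, 2.49, 2.21 and 2.14% of the summed FPKM of both myosins in sham and 12.3, 2.31 and 10.2% in MI replicates 1 to 3. The share was low in 5 hearts and several times higher in MI replicates 1 and 3. The log2 ratio of Myh7 to Myh6 was 1.62 higher in MI (exact permutation p = 0.171, 0.286 adjusted over 4 ratios) and 2.42 higher without MI replicate 2. The sum of both genes was 3888 to 4191 FPKM in sham and 2175, 4096 and 2508 in MI, so the sum too was lower in MI replicates 1 and 3.

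Genes read from the opposite strand overlap both myosins, and whether the counting used the strand is not given in the sources used here. Mhrt, an antisense transcript that shares 484 exon bases with Myh7, had 17.5, 20.7, 17.8 and 18.3 FPKM in sham and 7.80, 20.2 and 11.2 in MI replicates 1 to 3. Gm31251, which shares 523 exon bases with Myh7, had 46.2 to 58.1 in sham and 20.2, 50.5 and 26.1 in MI. Both were lower in the hearts where Myh7 was higher. The log2 difference of Mhrt was -0.57 (standard error 0.27, adjusted p = 0.150) and that of Gm31251 -0.80 (standard error 0.28, adjusted p = 0.109). Without MI replicate 2 they were -0.91 (adjusted p = 0.000827) and -1.17 (adjusted p = 0.000182). Gm29015 shares 142 exon bases with Myh7 and did not follow this split, at 6.89 to 16.3 FPKM in sham and 8.65, 15.4 and 11.9 in MI. Over Nppa the antisense gene Gm13054, with 532 shared exon bases, was high in the same hearts as its partner, at 0.337 to 1.14 FPKM in sham and 30.1, 0.539 and 33.8 in MI. Without the strand, its reads and those of Nppa cannot be told apart. The antisense genes over Npr1 (Gm16048, up to 3 fragments a heart) and Npr2 (Gm12473, up to 6) were nearly silent, and Gm49130 over Myh6 had 31 fragments at most. Other genes lie inside introns of members and share no exon bases with them. Gm17428, within Myh7 on the opposite strand, had 15.3 to 21.3 FPKM in sham and 6.42, 20.4 and 8.65 in MI, a log2 difference of -0.81 (adjusted p = 0.126) and of -1.25 without MI replicate 2 (adjusted p = 0.000380). A530058N18Rik, within Actc1, had 1.49 to 2.07 in sham and 0.902, 1.90 and 0.970 in MI, a difference of -0.32 (adjusted p = 0.179) and of -0.51 without MI replicate 2 (adjusted p = 0.00379). The microRNA genes Mir208a in Myh6 and Mir208b in Myh7 had at most 20 and 4 fragments a heart and passed neither test, and Gm20388 over Acta1 was not analysed here. Myosin and actin genes are also close copies of each other, so values that rest on reads shared between copies are uncertain.

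Acta1 (ENSMUSG00000031972, chromosome 8 from 123891769 to 123894751, minus strand) varied most within sham. It had 342, 252, 301 and 74.4 FPKM in sham replicates 1 to 4 and 488, 183 and 568 in MI replicates 1 to 3, so MI replicate 2 fell between sham hearts and the other MI hearts exceeded them all. The log2 difference was 0.82 (standard error 0.61, adjusted p = 0.313), and 1.32 (standard error 0.58, adjusted p = 0.0763) without MI replicate 2, so that Acta1 was not called in either. Without sham replicate 4, the low sham heart, it was 0.32 (adjusted p = 0.596), without MI replicate 3 it was 0.51 (adjusted p = 0.627), and after scaling by the median log-ratio it was 0.54 over all hearts. Actc1 (ENSMUSG00000068614, chromosome 2 from 114047282 to 114053548, minus strand) had 7013, 5867, 5741 and 6044 FPKM in sham and 5216, 5896.5 and 5069 in MI. Levels in MI replicates 1 and 3 were 0.846 and 0.822 times the sham mean. Its log2 difference was -0.19 (standard error 0.19, adjusted p = 0.436) over all hearts. It turned to 0.0083 after rescaling to TPM, and was -0.47 after scaling by the median log-ratio and -0.32 with mitochondrial genes left out. Without MI replicate 2 it was -0.26 (standard error 0.09, adjusted p = 0.0343).

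Acta1 was 4.65, 4.11, 4.97 and 1.22% of the summed FPKM of both actins in sham and 8.55, 3.01 and 10.1% in MI replicates 1 to 3. The highest shares were those of MI replicates 1 and 3 and the lowest that of sham replicate 4. The log2 ratio of Acta1 to Actc1 was 1.01 higher in MI (exact permutation p = 0.229, 0.286 adjusted over 4 ratios) and 1.59 higher without MI replicate 2. It was 0.52 higher without sham replicate 4 and 0.66 higher without MI replicate 3.

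Ankrd1 (ENSMUSG00000024803, chromosome 19 from 36111961 to 36120099, minus strand) had 64.8, 58.1, 71.6 and 53.3 FPKM in sham and 324, 59.9 and 353 in MI replicates 1 to 3. MI replicates 1 and 3 were 5.23 and 5.69 times the sham mean of 62.0 ± 7.99 (SD, n = 4), and MI replicate 2 was at 0.967 times that mean. The log2 difference was 1.61 (standard error 0.58, adjusted p = 0.110), and 2.44 (standard error 0.12, adjusted p = 8.12e-06) without MI replicate 2. Of the 9 genes tested, Ankrd1 had the smallest adjusted p in that second comparison.

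**Figure D3:**
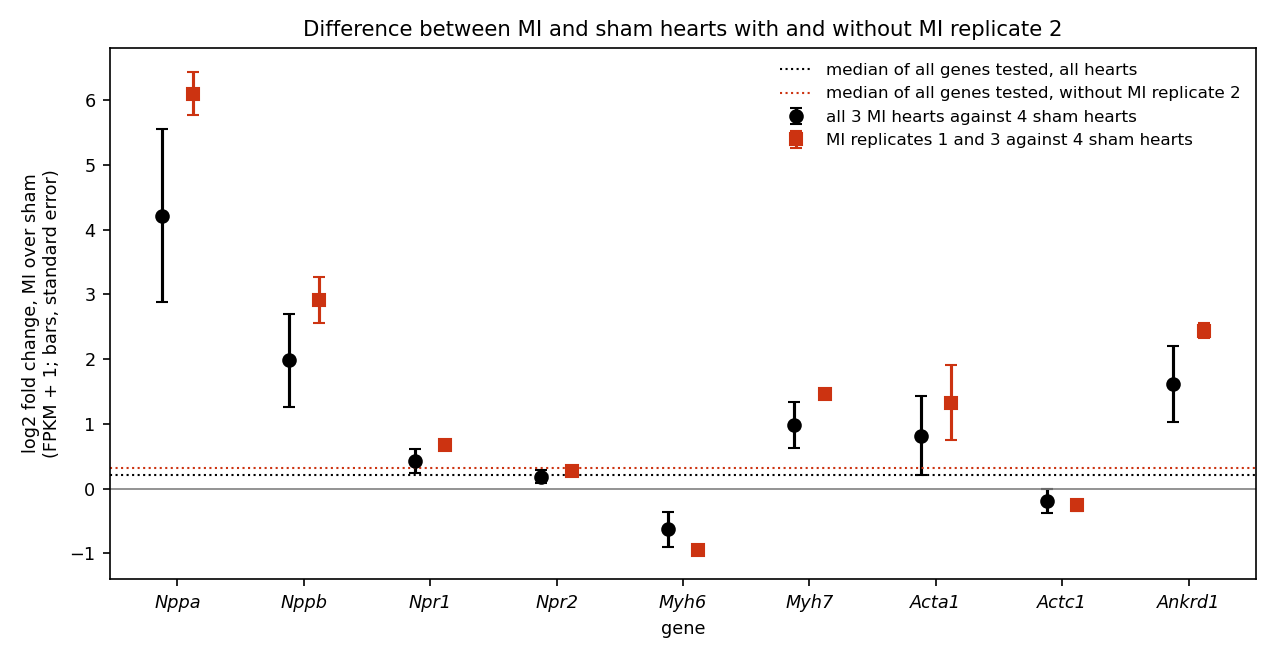
Log2 difference of FPKM + 1 between MI and sham for the 9 genes tested, with standard errors: black circles, 3 MI against 4 sham hearts; red squares, without MI replicate 2; dotted lines, the median of all 11431 genes in each comparison. Most bars are narrower without MI replicate 2, and the order of the genes, from Nppa at the top to Myh6 at the bottom, is the same in both.

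Sham hearts were not uniform in this set of genes. On the log2 scale the SD among sham hearts was 1.00 for Acta1, 0.61 for Nppb and 0.57 for Nppa, which ranked 14, 79 and 96 of 11431 genes, and the median gene had an SD of 0.085. The highest sham heart exceeded the lowest by 4.59 times for Acta1, 2.78 times for Nppb and 2.65 times for Nppa, but by 1.08 times for Myh6 and 1.09 times for Npr1. Sham replicate 4 was the lowest sham heart for Nppa, Nppb, Myh7, Acta1 and Ankrd1. It was not the lowest for Myh6, Actc1, Npr1 or Npr2. The standard error of Acta1 went only from 0.61 to 0.58 when MI replicate 2 was left out, while that of Ankrd1 went from 0.58 to 0.12.

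Other heart muscle genes were also lower in MI replicates 1 and 3, so 7 genes were set against 10 cardiomyocyte genes of the same heart (Myl2, Myl3, Tnnt2, Tnni3, Actn2, Mybpc3, Ryr2, Ttn, Ldb3 and Tcap). Without MI replicate 2, 9 of the 10 were lower at an adjusted p of 0.05, Mybpc3 excepted, against 14.7% of all genes. The mean log2 FPKM of the 10 was 8.46 to 8.49 in sham and 7.65, 8.44 and 7.87 in MI replicates 1 to 3. Relative to them Nppa was -1.66, -1.52, -0.95 and -2.34 in sham and 5.30, -1.12 and 5.12 in MI, a difference of 4.72 (exact permutation p = 0.114). Nppb differed by 2.48 (p = 0.171 by the same exact test), Ankrd1 by 2.11 (exact p = 0.171), Myh7 by 1.48 (exact p = 0.114) and Acta1 by 1.31 (exact p = 0.229), which was 0.82 without sham replicate 4. After adjustment over the 7 values each p was 0.229.

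Set this way, Myh6 and Actc1 looked different from their raw levels. Myh6 was 3.41 to 3.53 above the reference in sham and 3.24, 3.52 and 3.27 in MI replicates 1 to 3, a difference of -0.14 (exact permutation p = 0.229) where the FPKM itself had differed by -0.63. With 10 adult isoforms and calcium, potassium, glucose or energy genes as the reference instead, the difference of Myh6 was 0.11. Its direction thus depended on the reference, although Myl2, Myl3, Tnni3 and Ryr2 belong to both references. With the first reference and without MI replicate 1, the difference of Myh6 was -0.088. Actc1 was 4.01 to 4.29 above the reference in sham and 4.70, 4.08 and 4.44 in MI, a difference of 0.30 (exact permutation p = 0.171), opposite in sign to its FPKM. The difference of Actc1 was 0.55 with the other reference and 0.15 without MI replicate 1. Without MI replicate 2 the differences were 6.83 for Nppa, 3.65 for Nppb, 3.17 for Ankrd1, 2.19 for Myh7, 2.05 for Acta1, 0.46 for Actc1 and -0.23 for Myh6.

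**Figure D4:**
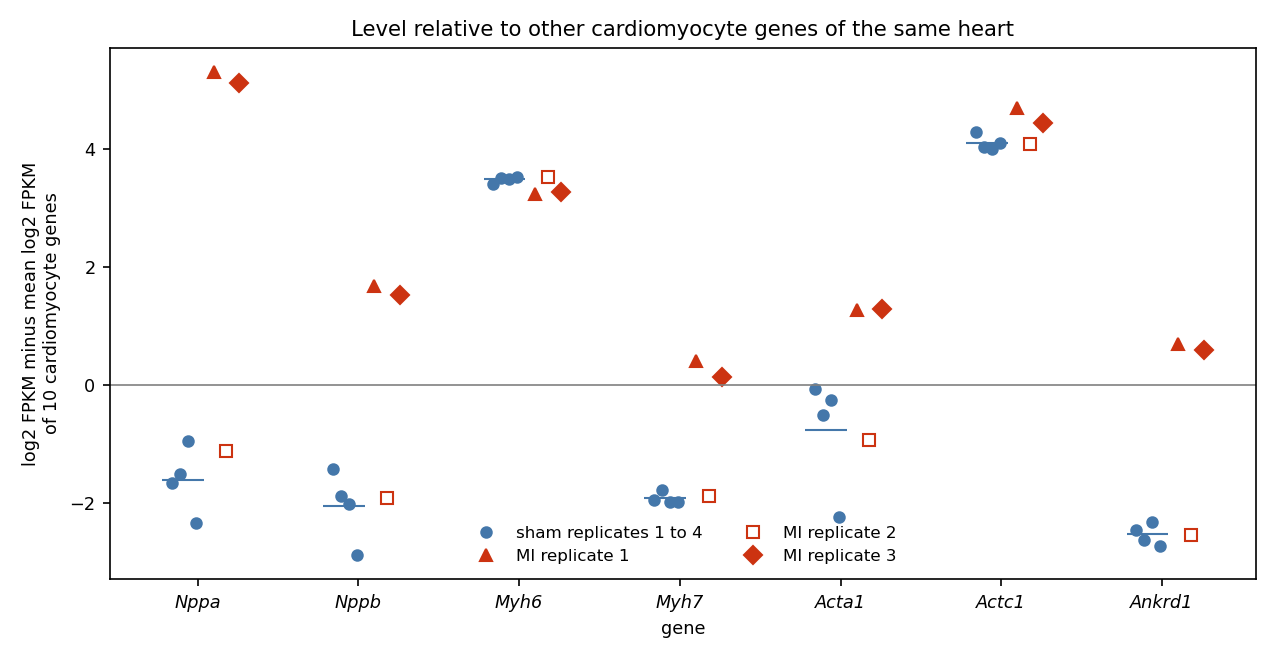
Log2 FPKM of 7 genes minus the mean log2 FPKM of 10 cardiomyocyte genes in the same heart, symbols as for the plot of FPKM by heart and lines at the sham mean. Nppa, Nppb, Myh7, Acta1 and Ankrd1 lie above every sham heart in MI replicates 1 and 3, Actc1 slightly so, and Myh6 lies below every sham heart in these 2.

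Fibroblast and macrophage markers were higher in the same hearts, and those of vessel cells were split. Without MI replicate 2, all 7 fibroblast and all 7 macrophage markers were higher at an adjusted p of 0.05, against 57.0% of all genes. Over all hearts, 0 of these markers were called. Summed fibroblast FPKM was 102 to 126 in sham and 2305, 201 and 1758 in MI replicates 1 to 3, and summed macrophage FPKM was 194 to 247 in sham and 1301, 234 and 1117 in MI. No fibroblast or macrophage marker was at 0 in any heart. Endothelial markers summed to 129 to 148 in sham and 161, 122 and 172 in MI, and smooth muscle markers to 105 to 127 and then 215, 99.4 and 257. Of 6 endothelial markers 4 were called higher and 0 lower without MI replicate 2, and of 4 smooth muscle markers tested 2 were higher and 1 lower. The shares of all genes were 57.0% higher and 14.7% lower. The endothelial receptor Kdr was below every sham heart in all 3 MI hearts, at 18.1 to 21.5 FPKM in sham and 17.7, 16.5 and 16.4 in MI, as was the smooth muscle gene Smtn, at 37.6 to 40.4 and then 29.4, 33.9 and 33.5. The part of this cell mixture in the levels of the 10 genes was not tested.

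Adult cardiomyocyte genes gave a contrast to the program. All 10 adult isoforms and calcium, potassium, glucose or energy genes were tested, and 0 passed an adjusted p of 0.05 over all hearts. Without MI replicate 2, 10 of 10 were lower, against 14.7% of all genes. Myl2, Myl3, Tnni3 and Ryr2 were also among the 10 reference genes above. The median log2 difference of the 10 adult genes was -0.74 over all hearts and -1.05 without MI replicate 2. Largest was that of Tnni3, adult cardiac troponin I, at 671 to 784 FPKM in sham and 272, 716 and 283 in MI. Its difference was -0.93 (standard error 0.34, adjusted p = 0.110) and, without MI replicate 2, -1.39 (standard error 0.07, adjusted p = 1.15e-05). Atp2a2, the calcium pump of the sarcoplasmic reticulum, had 1418 to 1502 FPKM in sham and 607, 1457 and 665 in MI, a difference of -0.81 (standard error 0.30, adjusted p = 0.112) and of -1.21 without MI replicate 2 (standard error 0.06, adjusted p = 8.71e-06). Over all hearts Ckm (-0.78), the potassium channel gene Kcnd2 (-0.78) and the ventricular light chain Myl2 (-0.75) followed, at -1.14, -1.09 and -1.03 without MI replicate 2. Myl2 and Kcnd2 were below every sham heart in all 3 MI hearts.

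Fetal isoforms and stress genes beyond the 10 did not all share their direction. Of 15 such genes 9 were tested and 0 passed an adjusted p of 0.05 over all hearts. Without MI replicate 2, 3 were higher and 3 lower, against 57.0% and 14.7% of all genes. The median log2 difference of the list was 0.10 over all hearts, against 0.21 for all genes. It was 0.46 without MI replicate 2, against 0.33. Rcan1, an inhibitor and target of calcineurin, had 2.16 to 7.78 FPKM in sham and 31.9, 6.51 and 32.9 in MI. The log2 difference of Rcan1 was 1.63 (standard error 0.61, adjusted p = 0.112), and 2.34 (standard error 0.41, adjusted p = 0.00182) without MI replicate 2. Fhl1, a LIM protein of hypertrophied muscle, had 6.92 to 7.70 in sham and 13.4, 8.09 and 19.97 in MI, above every sham heart. The related Fhl2 lay below every sham heart, at 668 to 735 FPKM in sham and 373, 620.4 and 461 in MI. Smooth muscle actin Acta2 had 46.8 to 74.0 in sham and 121, 45.4 and 162 in MI, and the pacemaker channel gene Hcn4, also lower in all 3 MI hearts, had 1.48 to 2.19 and then 0.675, 1.18 and 1.02. Gdf15, a stress cytokine below the level for testing, had 0.331 to 0.466 FPKM in sham and 19.4, 0.740 and 17.0 in MI. The fetal troponin Tnni1 and atrial light chains Myl4 and Myl7 stayed under 1 FPKM in every heart.

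Genes for factors that act on the program were split in direction. Of 25 such regulators, 21 were tested and 0 passed an adjusted p of 0.05 over all hearts. Without MI replicate 2, 6 were higher and 4 lower, against 57.0% and 14.7% of all genes. The median log2 difference was -0.04 over all hearts, against 0.21 for all genes. It was -0.03 without MI replicate 2, against 0.33. Myocd, the cofactor of serum response factor, had 2.49 to 3.95 FPKM in sham and 1.54, 2.41 and 1.55 in MI, below every sham heart. Its log2 difference was -0.61 (standard error 0.17, adjusted p = 0.108) and, without MI replicate 2, -0.75 (standard error 0.14, adjusted p = 0.00248). Tbx5, a cardiac T-box factor, had 3.92 to 4.63 in sham and 2.20, 4.34 and 2.28 in MI, a difference of -0.43 (adjusted p = 0.129) and of -0.67 without MI replicate 2 (adjusted p = 0.000179). Rest, a repressor of fetal cardiac genes, had 2.35 to 2.97 in sham and 4.74, 2.47 and 4.32 in MI, a difference of 0.38 (adjusted p = 0.148) and of 0.60 without MI replicate 2 (adjusted p = 0.000565). Nfatc3, a calcineurin-dependent factor (0.34, adjusted p = 0.120), and Wwtr1, a coactivator of TEAD factors (0.34, adjusted p = 0.187), were the next in size among those tested. Nfatc3 differed by 0.49 (adjusted p = 0.00203) and Wwtr1 by 0.57 (adjusted p = 0.000616) without MI replicate 2. Of the regulators not tested, Nfatc4 had 0.440 to 0.504 FPKM in sham and 3.38, 0.517 and 2.44 in MI, above every sham heart. Dio3 had 0.0576 or less in sham and 0.515, 0.0254 and 0.341 in MI. Mef2c (0.410 to 0.446 in sham, then 1.31, 0.335 and 0.327) and Tead1 (0.578 to 1.26, then 0.536, 0.610 and 0.470) did not share this pattern. Gata4, whose motif was searched above, had 8.17 to 12.2 FPKM in sham and 12.3, 10.9 and 6.62 in MI, a log2 difference of -0.04 (adjusted p = 0.888) and of -0.12 without MI replicate 2 (adjusted p = 0.659).

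**Figure D5:**
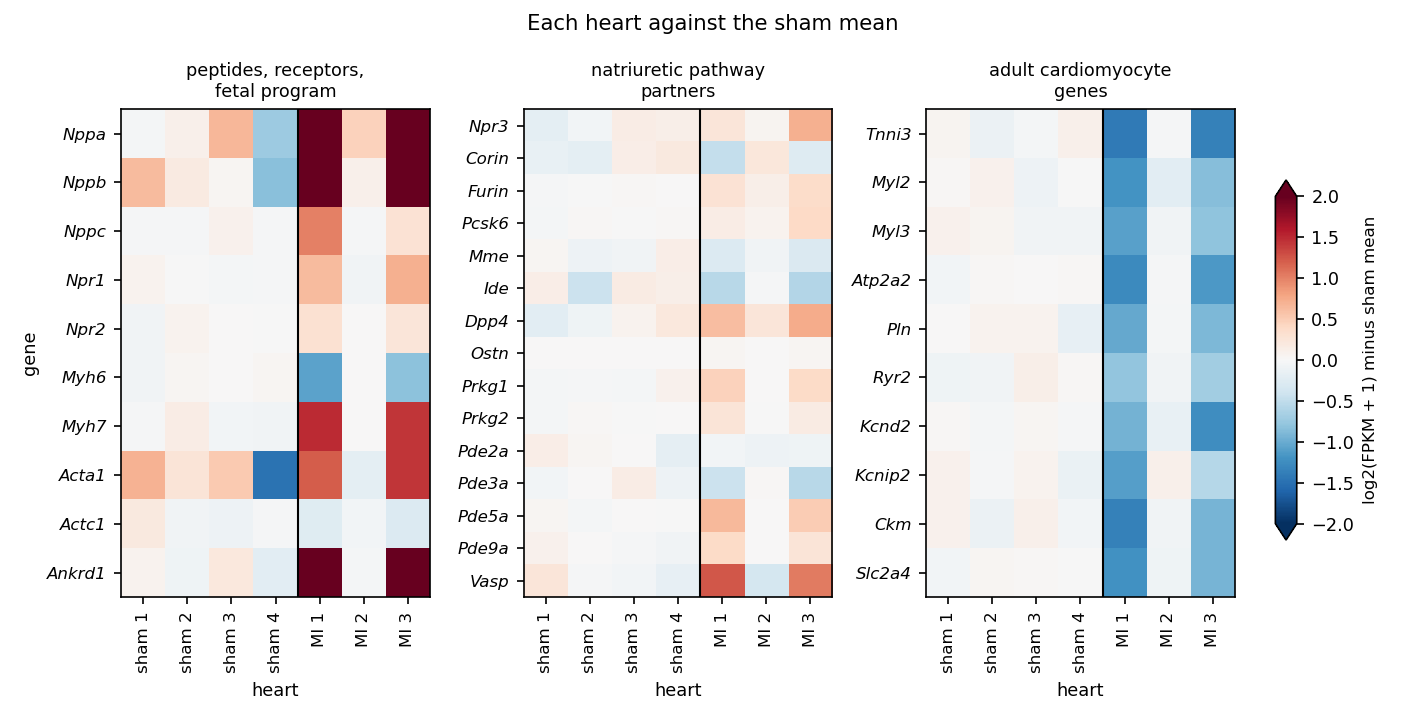
Colour gives log2(FPKM + 1) of each heart minus the mean of the 4 sham hearts, from blue (lower) to red (higher), with colours full at 2 either way. Columns are hearts, rows are the 10 genes, the 15 natriuretic pathway partners and the 10 adult cardiomyocyte genes. MI replicates 1 and 3 differ from the rest in all 3 panels, most in Nppa, Nppb and Ankrd1, and sham replicate 4 is low for Acta1, Nppb and Nppa.

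The genes whose level followed a member most closely over the 7 hearts, for 8 of the 10 members, are given as a description. Since 2 hearts lay apart from the other 5, Pearson's r of log2(FPKM + 1) mainly reads that split. The 3 closest were Gm6863, Sft2d2 and Slc25a1 for Nppa (r = 0.999 each), Tspan17, Spindoc and Ufm1 for Nppb (0.996 to 0.998), and Lamb1, Stk25 and Csnk2a2 for Ankrd1 (0.998 to 0.999). They were Phc2, Lhfp and Slc4a2 for Myh7 (0.998 to 0.999), and Ech1, Aldh4a1 and Acacb for Myh6 (0.998 to 0.999). Npr1 was followed by Mxra7, Myl6 and Rap1gds1 (0.998 to 0.999) and Npr2 by Crebbp, Rpl13-ps6 and Gm49376 (0.992 to 0.998). Acta1 was followed by Tshz2, Gm12168 and Btrc (0.981 to 0.991).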

How the data were processed

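Myocardial RNA of 7 mice was sequenced (3 with a tied left coronary artery, 4 sham), with groups as labelled. For 56980 genes the authors deposited FPKM values, which are scaled to gene length and library size. The submitters' processing notes name CASAVA 1.8, HISAT2, SAMtools 1.3.1, edgeR and the build mm10, without roles, and the annotation and strand setting are not given in the sources used here. Identifiers were joined to GENCODE M21 (GRCm38), which held 91.4% of them. The gene lengths behind the values are not given in the sources used here.

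Taking the M21 exon length where it gave whole fragments, and otherwise the nearest length that did, FPKM steps gave whole fragments for 30502 of 30504 genes above 0 (within 0.05 of a fragment, or 5e-07 of the number where that is more), and hence depths. Fragment numbers and the voom alternative rest on this. On data simulated with these same lengths the depths were exact and 97.9% of 29264 genes came back exactly. This cannot show that the lengths are right, and for highly expressed genes many fit (104829 for Myh6). The 11431 genes at 1 FPKM or more in 3 or more hearts were tested as log2(FPKM + 1) with limma 3.58.1 in R 4.3.3 (trend, no covariates), with Benjamini-Hochberg adjustment over all of them. On simulated data with log2 changes of 2 or 3, limma called 190 of 200 changed genes and 5 unchanged ones. Power in the real hearts cannot be read from that rate, because their MI group holds the split of MI replicate 2. There Nppa, with a larger log2 difference of 4.22, was not called (limma, adjusted p = 0.108). Ratios and levels relative to 10 cardiomyocyte genes were taken as log2 FPKM and tested by exact two-sided permutation, the smaller tail doubled. Tried as alternatives were other scalings (TPM, quantile, median log-ratio, mitochondrial genes left out), another pseudocount or no filter, other limma settings, voom, a replicate block, another reference and each heart left out. Other steps used Python, pandas, NumPy, SciPy and matplotlib.

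The members and gene lists were chosen with earlier results of these data known. Named were the 10 members, all natriuretic pathway partners, up to 5 genes with the largest absolute log2 difference in each of the other lists (fetal and stress genes, adult counterparts, regulators), genes overlapping a member or inside its introns, and the 3 genes most like each member tested (those of Actc1 are not reported here). Gdf15, Gata4, Nfatc4, Dio3, Mef2c, Tead1, Postn, Dkk3, Tnnt3, Kdr, Smtn and the fetal and atrial light chain and troponin genes were added after their values were seen. Promoter sequences are from RefSeq, and protein sequences were not analysed here.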

Additional observations from a re-analysis of the deposited data

Results flagged for a closer look

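Among the 4 sham hearts, 1 heart lay far from the other 3 in 3 of the 21 sets of values examined (10 gene levels, 4 ratios and 7 levels relative to cardiomyocyte genes), by Dixon's 95% critical value for the gap to the nearest heart relative to the whole range. Chance alone flags about 1 in 20 such sets. Nppc was at 0 in 3 sham hearts and at 2 fragments in sham replicate 3, so that the gap was 1 times the range, as for any gene seen in 1 heart of a group, and this set does not tell an outlier from low depth. The Acta1 to Actc1 ratio was 0.0123 in sham replicate 4 and 0.0429 to 0.0523 in the other sham hearts, a gap of 0.862 of the range on the log2 scale. This was the heart with the lowest Nppa, Nppb, Myh7, Acta1 and Ankrd1 of the sham group. Myh7 relative to the cardiomyocyte genes was -1.78 in sham replicate 2 and -1.99 to -1.96 in the other 3, a gap of 0.852 of a narrow range.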

How the results depend on the processing

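The number of members called at an adjusted p of 0.05 depended on MI replicate 2. Over all hearts it was 0 higher and 0 lower, and it stayed so in 16 of 18 alternatives. With 1 heart left out at a time, the number called higher ran from 0 to 6 and the number called lower from 0 to 2, and both maxima came when MI replicate 2 was left out. With sample weights 7 were higher and 2 lower, with a weight of 437 on MI replicate 3 and 0.0217 on MI replicate 2, so that this setting rests on nearly 1 MI heart. Adjusted p-values over the 18 alternatives ran from 6.55e-08 to 0.335 for Nppa and from 0.002 to 0.627 for Acta1. The direction of the 9 members tested was kept except that Npr2 was -0.068 after quantile normalization and -0.063 after median log-ratio scaling, and Actc1 was 0.0083 after rescaling to TPM. By scaling, Npr1 ran from 0.15 (quantile) to 0.65 (TPM), and Myh6 was -0.10 after quantile normalization. Rescaling to TPM moved the median gene from 0.21 to 0.42 and median log-ratio scaling to 0.0036.

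The 4 ratios kept their direction in 9 alternatives each, from 1.14 to 2.42 for Myh7 to Myh6 from 1.76 to 3.18 for Nppa to Nppb, from 0.52 (without sham replicate 4) to 1.59 for Acta1 to Actc1 and from -0.46 to -0.15 for Npr2 to Npr1. Of the levels relative to cardiomyocyte genes, that of Myh6 became 0.11 with the adult counterparts as reference (exact permutation p = 0.0571), against -0.14. The cause was not tested. Between hearts that share a replicate number, deviations from the group means correlated at 0.074, -0.016 and -0.080. Those of the MI hearts hold the split of MI replicate 2, so this cannot tell whether the hearts were paired. The block drops sham replicate 4, which has no MI heart of its number, and its differences equalled those without that heart. With a replicate block the count of members called stayed 0, Nppa differed by 3.97 (adjusted p = 0.240) and Acta1 by 0.32, and the Myh7 to Myh6 ratio by 1.58 (exact sign-flip p = 0.50).

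Depth limited only Nppc among the members. The smallest p of an exact test of 3 hearts against 4 was 0.0571.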
